A study of Mus musculus with 6 samples.

Results

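The genes described here are 10 core genes of the transforming growth factor beta (TGF-beta) ligands, receptors and latency protein family. The 3 ligand genes are Tgfb1, Tgfb2 and Tgfb3, and the receptor genes are Tgfbr1, Tgfbr2 and Tgfbr3. The latent TGF-beta binding protein (LTBP) genes are Ltbp1, Ltbp2, Ltbp3 and Ltbp4. All 10 genes were found by gene symbol among the 21671 named genes of the count table. All 10 passed the filter on low counts, which kept 14809 genes for testing. The tissue was subcutaneous mouse tumours in which RNA was sequenced after removal of ribosomal RNA. Counts of the 10 genes ran from 99 to 3712 reads in single libraries, whose totals ran from 12090309 to 16169043 counts.

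TGF-beta is secreted as a latent complex. The mature ligand stays bound to its own propeptide. LTBPs other than LTBP2 hold this complex in the extracellular matrix until integrins, proteases or other activators release it. LTBPs are large glycoproteins that associate with fibrillin microfibrils. The free ligand joins the type II receptor, encoded by Tgfbr2, to the type I receptor, encoded by Tgfbr1, which phosphorylates SMAD proteins. Betaglycan, the product of Tgfbr3, is a co-receptor that presents ligand and that TGF-beta2 in particular depends on. In tumours the pathway is known for its effects on fibroblasts, matrix, vessels and immune cells.

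The tumours were grown in mice of the strain labelled CD1 nude ho, which lack a thymus, from injected transformed hepatoblasts, progenitors of the liver epithelium, that carried the conditional vector TtRMPVIR shST18. This vector expresses a short hairpin RNA against St18, a zinc finger transcription factor gene, when doxycycline is present. The 3 untreated libraries have the genotype label wild type, although the protocol describes the vector in the injected cells of the series as a whole. The 3 doxycycline libraries have the genotype label ST18 knockdown and were taken 4 h after gavage with 300 µl of doxycycline at 200 mg/ml. Host and injected cells are both mouse, so their transcripts cannot be told apart. Doxycycline without the hairpin is not among the groups, so drug, gavage and hairpin cannot be told apart. The sources used here do not give the sex and age of the animals or the number of cell clones. They also do not say whether libraries stand for different animals, so p-values measure the spread between these libraries. The comparison asks how the TGF-beta genes differed between the groups.

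St18 itself showed no detected decrease in the libraries labelled ST18 knockdown. It had 12, 23 and 19 counts in the untreated libraries against 34, 12 and 61 after doxycycline (replicates 1 to 3 each). The groups overlapped (log2 fold change 1.03, edgeR quasi-likelihood test, adjusted p = 0.298). Every direction given here is therefore between libraries as labelled. Markers of hepatocytes were near 0: Alb had at most 2 counts and Ttr at most 1 count in any library, while Krt8, Krt18, Sox9 and H19 were present. Markers of other cells differed between the groups. For scale, edgeR called 2.84% of all genes tested higher and 2.18% lower at an adjusted p under 0.05. Of 15 skeletal muscle markers 10 were higher, with a summed level of 84.5 to 237 CPM (read counts scaled to a common, TMM-adjusted library total) in untreated and 451 to 3061 CPM in doxycycline libraries. Among the doxycycline libraries the muscle sum was highest in replicate 2 and lowest in replicate 3. Untreated counts were 1, 2 and 1 for Pvalb and 4, 10 and 5 for Myh4, both called higher. They were 4, 27 and 7 for Myl1 and 3, 42 and 7 for Ckm, also called. These genes passed the filter on low counts only through the doxycycline group, so their part in the count of calls is no support. Of 11 fibroblast markers 4 were higher (sum 532 to 595 and 912 to 1174 CPM), of 11 macrophage markers 3 (412 to 506 and 547 to 768 CPM), and of 11 endothelial markers 2 (433 to 477 and 501 to 566 CPM). Of 7 neutrophil markers tested 1 was lower (99.9 to 160 and 42.0 to 77.6 CPM for the 8 in the table). No marker on these lists was at 0 in every library. Without any 1 untreated library 2 fibroblast markers, Dcn and Lum, passed, and no muscle, macrophage, endothelial or neutrophil marker passed in edgeR (14 to 15, 6 to 8, 2 to 3 and 3 to 5 at an unadjusted p under 0.05), and DESeq2 called 14, 6, 2 and 4 of them on all libraries and limma-voom 1, 2, 2 and 0. The 10 mural cell markers, the 5 platelet markers tested, the 10 liver lineage markers tested and the 3 lymphocyte markers tested held no call in edgeR (4, 1, 0 and 0 at an unadjusted p under 0.05; 2, 0, 0 and 0 calls by DESeq2; none by limma-voom). Without doxycycline replicate 2, edgeR called 3 mural markers, Pf4 (lower) and Krt19. Macrophage markers also lost their calls without doxycycline replicate 1 or 3, endothelial ones without replicate 3 and the neutrophil one without replicate 1, and 2 muscle markers passed without replicate 1. The part of any of these cells in the values of the TGF-beta genes was not tested, and in bulk tissue fewer cells of a type cannot be told apart from less RNA per cell.

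Of the 10 TGF-beta genes, Tgfb2, Tgfb3 and Ltbp2 were higher after doxycycline at an adjusted p under 0.05, and none was lower. Across all genes tested 2.84% were called higher, 2.18% lower and 5.02% in either direction. The median log2 fold change of the 10 genes was 0.27, against 0.01 over all genes tested. With offsets for GC content and length, added after seeing the data, these medians were 0.16 and -0.06. Positive values were found for 6 of the 10. For the lower direction edgeR called 0 genes, with 1 (Ltbp4) at an unadjusted p under 0.05, and DESeq2 and limma-voom also called 0. The groups did not overlap for 7 of the 10 genes, 5 higher and 2 lower, against 29.6% of all genes tested. The 3 calls depended on the libraries: none passed without untreated replicate 1, only Ltbp2 without untreated replicate 2 or 3 or doxycycline replicate 1 or 3, and 5 (with Tgfbr1 and Ltbp1) without doxycycline replicate 2. DESeq2 on all libraries called the same 5.

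**Figure D1:**
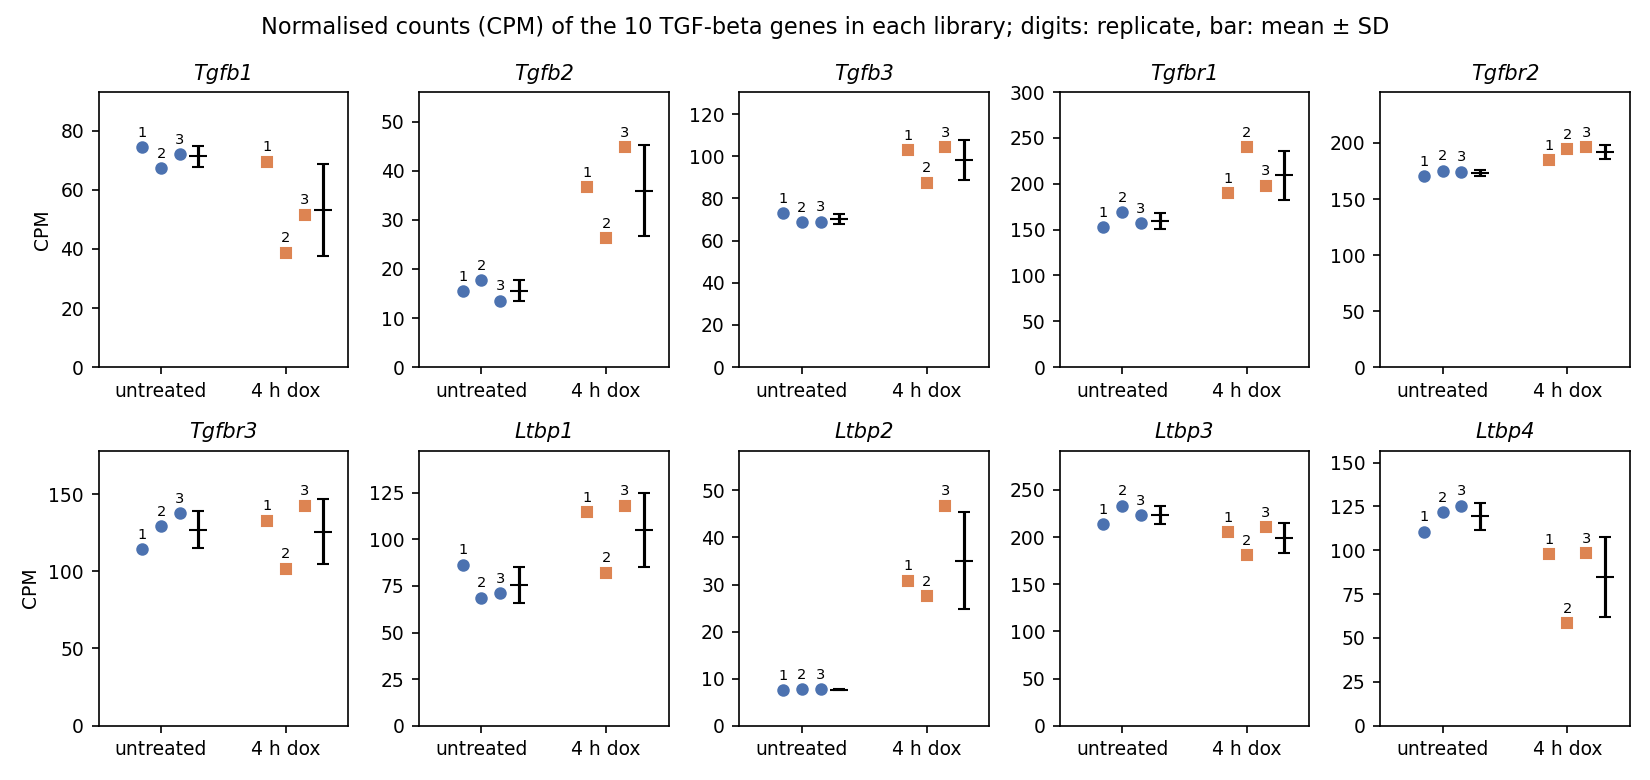
Normalised counts (CPM, vertical axis from 0) of the 10 genes in 3 untreated and 3 doxycycline libraries; points are libraries with their replicate number, and bars are the group mean ± SD. The doxycycline libraries lie above all untreated libraries for Tgfb2, Tgfb3, Tgfbr1, Tgfbr2 and Ltbp2 and under them for Ltbp3 and Ltbp4.

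RefSeq's promoter table (GRCm38.p6) held 8 of the 10 genes, among them Tgfb2 and Ltbp2, and their upstream sequence is shown because they had the largest increases. The Tgfb2 window is chr1:186705990-186706239 and the Ltbp2 window chr12:84876533-84876741. Each runs 5′ to 3′ on the minus strand, from 250 bases before the RefSeq start up to the first base that RefSeq or GENCODE counts as transcribed. Capitals mark matches on either strand. A SMAD-binding element was searched as CAGAC. The core of a cAMP response element was searched as TGACG. The E-box was searched as CACGTG, and the TATA box was searched as TATAAA.
Tgfb2: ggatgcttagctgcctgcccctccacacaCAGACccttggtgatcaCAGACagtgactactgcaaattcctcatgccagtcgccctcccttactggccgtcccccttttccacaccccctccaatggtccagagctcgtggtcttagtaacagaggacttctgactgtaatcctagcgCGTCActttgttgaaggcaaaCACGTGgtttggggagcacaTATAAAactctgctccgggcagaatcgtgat
Ltbp2: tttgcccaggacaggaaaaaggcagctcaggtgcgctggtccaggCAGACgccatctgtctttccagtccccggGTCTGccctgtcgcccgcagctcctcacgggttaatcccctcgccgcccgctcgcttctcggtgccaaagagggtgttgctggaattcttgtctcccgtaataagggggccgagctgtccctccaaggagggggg
Both windows held 2 matches to CAGAC, a short sequence found in 42.2% of 32851 windows of 250 bases and in those of 6 of the 8 genes. In the Tgfb2 window the E-box began 51 and the TATA box 31 bases before the start, and these occur in 6.02% and 12.4% of all windows. TGACG (17.8% of windows) was found for Tgfb2 and Ltbp1. The AP-1 sequence TGANTCA (6.75% of windows) was found for none of the 8. AAGTTT, the core bound by the MYT1 and ST18 zinc finger family (12.8% of windows), was found for Tgfbr2, Ltbp1 and Ltbp4. These are matches of letters and not measured binding. A gene was counted if any of its windows held a match, whereas the percentages are per window, so they are unlike measures.

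Among the ligands, Tgfb2, the isoform known for its role in heart and eye development and in mesenchymal cells, had the largest increase. Untreated libraries held 15.5, 17.7 and 13.6 CPM (replicates 1 to 3), doxycycline libraries 36.6, 26.3 and 44.8 CPM. All doxycycline libraries lay above all untreated ones, with replicate 3 highest and replicate 2 lowest. Means of 15.6 ± 2.08 and 35.9 ± 9.29 CPM (SD, n = 3 each) gave a fitted log2 fold change of 1.20 with SE 0.22 and a 95% interval of 0.70 to 1.70 (adjusted p = 0.0241 in edgeR). Leaving out single libraries gave log2 fold changes of 1.01 to 1.38 with adjusted p from 0.00141 (without doxycycline replicate 2) to 0.138 (without untreated replicate 3).

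Tgfb3, the isoform associated with palate fusion and with mesenchymal tissue, rose by less and with little spread. It stood at 72.9, 68.8 and 69.1 CPM in the untreated libraries and at 103, 87.5 and 104 CPM in the doxycycline libraries. The groups were separate, and doxycycline replicate 2 was again the lowest of its group. In edgeR the log2 fold change came to 0.48 with SE 0.10 and a 95% interval of 0.26 to 0.71 (adjusted p = 0.0323). Leaving out single libraries gave 0.44 to 0.56 with adjusted p from 0.00346 to 0.179. On the other strand, the GENCODE genes Gm37804 and Gm48008 together overlap at most 420 exonic bases of Tgfb3 (12.4%). Neither was among the counted genes. Whether counting used strand is not given, so reads of this overlap could belong to these genes.

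Tgfb1, the isoform made by platelets, macrophages and many other cells, did not pass the test, and its fitted value was negative. Its levels were 74.5, 67.3 and 72.2 CPM in the untreated and 69.5, 38.7 and 51.6 CPM in the doxycycline libraries. Doxycycline replicate 1 lay within the untreated range and replicates 2 and 3 under it. The log2 fold change was -0.42 (95% interval -0.86 to 0.01, edgeR adjusted p = 0.22). It was -0.66 without doxycycline replicate 1 (adjusted p = 0.0575) and -0.24 without doxycycline replicate 2 (adjusted p = 0.239).

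Scaled to exonic length (CPM per kb), Tgfb3 was the most abundant ligand in every library, at 20.8 ± 0.681 CPM per kb in untreated and 29.0 ± 2.76 in doxycycline libraries (SD, n = 3 each). Tgfb1 followed at 14.1 ± 0.723 and 10.6 ± 3.07, and Tgfb2 was lowest at 2.69 ± 0.36 and 6.21 ± 1.60 CPM per kb. The lengths pool the exons of all annotated transcripts of a gene, 5.04 kb for Tgfb1 and 3.38 kb for Tgfb3. Without this scaling the untreated means of Tgfb1 and Tgfb3 were 71.3 and 70.2 CPM, so their order in untreated libraries rests on the lengths. Which transcripts were present was not determined, so the shares below depend on the lengths too. The share of Tgfb2 in the summed ligand level was 6.86%, 8.33% and 6.32% in the untreated and 12.5%, 11.9% and 15.9% in the doxycycline libraries. The share of Tgfb1 was 36.3% to 38.6% against 20.1% to 27.3%. Neither share overlapped between the groups. The summed ligand level was 37.6 ± 1.22 and 45.8 ± 6.74 CPM per kb, and doxycycline replicate 2, at 38.1, lay within the untreated range of 36.8 to 39.0.

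Ratios taken within a library, which no scaling between libraries can alter, showed the same contrast between isoforms. They come from the same counts, so they are not separate support, and differences in GC content can still alter them. GC content was 56.2% for Tgfb1, 47.6% for Tgfb2 and 53.0% for Tgfb3. With the GC and length offsets the edgeR log2 fold changes were -0.36, 1.08 and 0.49, and the ratios were not taken with offsets. The ratio of Tgfb2 to Tgfb1 per exonic length was 0.181, 0.229 and 0.164 (untreated) against 0.459, 0.592 and 0.757 (doxycycline). On the log2 scale the means differed by 1.64 (exact permutation test, two-sided, p = 0.1). The ratio of Tgfb3 to Tgfb1 was 1.46, 1.52 and 1.43 against 2.21, 3.37 and 3.02, a log2 difference of 0.94 (exact permutation test, p = 0.1). With 3 libraries against 3 the smallest p that this test can give is 0.1, so these ratios cannot reach 0.05, and adjustment over the 3 ratios tested left p at 0.1.

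**Figure D2:**
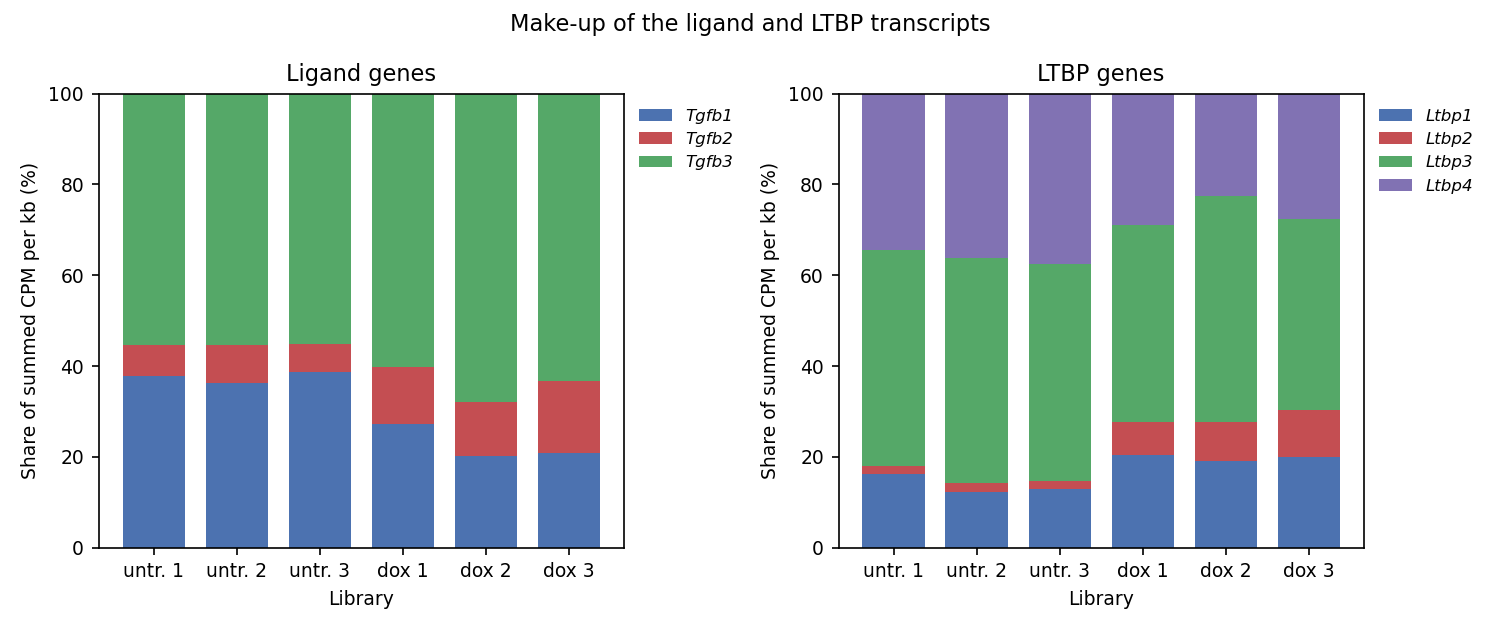
Share of each gene in the summed length-scaled level (percent of CPM per kb, vertical axis) of the ligand genes (left) and LTBP genes (right) in each of the 6 libraries. The Tgfb2 share is 6.32% to 8.33% in untreated and 11.9% to 15.9% in doxycycline libraries, and the Ltbp2 share 1.83% to 1.84% and 7.20% to 10.4%.

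Among the receptor genes edgeR with TMM scaling called 0, with 1 (Tgfbr1) at an unadjusted p under 0.05, and limma-voom called 0. Tgfbr1 was called by DESeq2, by edgeR with upper-quartile scaling (log2 fold change 0.43, adjusted p = 0.0468) and by edgeR without doxycycline replicate 2 (0.28, adjusted p = 0.0376). Tgfbr1, the kinase that phosphorylates SMAD2 and SMAD3, stood at 152, 169 and 157 CPM in the untreated and 190, 240 and 198 CPM in the doxycycline libraries. The groups did not overlap, and doxycycline replicate 2 was the highest, the reverse of its place for the ligands. The log2 fold change was 0.39 (95% interval 0.16 to 0.62, edgeR adjusted p = 0.0602). Its transcripts have the lowest GC content of the 10 genes, 43.5%, and with offsets for GC content and length, added after seeing the data, the value was 0.22 (adjusted p = 0.275). GC content differed between the calls as a whole: genes called higher had a median of 46.7% and genes called lower 54.7%. The offsets turned 421 higher and 323 lower calls into 303 and 399, with a median log2 fold change of -0.06 over all genes. They were fitted to each library's differences from the mean of all libraries. The offsets therefore also remove any true difference between the groups that follows GC content or length. They cannot tell such a difference from a technical one.

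Tgfbr2, the ligand-binding type II receptor, was at 171, 175 and 174 CPM against 185, 194 and 196 CPM. These groups did not overlap, but the log2 fold change was only 0.15 (95% interval -0.003 to 0.29, edgeR adjusted p = 0.219). Tgfbr3, betaglycan, was at 114, 129 and 137 CPM against 133, 102 and 143 CPM, and the groups overlapped. Its log2 fold change was -0.01 (95% interval -0.32 to 0.29, edgeR adjusted p = 0.963), with a sign that turned positive under upper-quartile scaling and without untreated replicate 3 or doxycycline replicate 2. Per exonic length the receptors were among the most abundant of the 10 transcripts, at 24.4 (Tgfbr1), 21.2 (Tgfbr2) and 19.4 (Tgfbr3) CPM per kb in untreated libraries. The summed receptor level was 65.0 ± 2.95 in untreated and 74.7 ± 2.41 CPM per kb in doxycycline libraries. Its ranges, 61.6 to 67.0 and 71.9 to 76.1, were separate, and this sum was not tested.

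Ltbp2 changed most of the 10 genes. Its product associates with microfibrils and is known, unlike other LTBPs, not to bind the latent ligand. Untreated libraries held 7.49, 7.80 and 7.76 CPM, doxycycline libraries 30.8, 27.6 and 46.8 CPM (replicates 1 to 3). The untreated libraries lay close together, and the lowest doxycycline library was far above all of them. Means of 7.68 ± 0.17 and 35.0 ± 10.3 CPM (SD, n = 3 each) corresponded to a log2 fold change of 2.19 with SE 0.23 and a 95% interval of 1.66 to 2.72 (adjusted p = 0.00546 in edgeR), or 4.56-fold. Without untreated replicate 1 it was 2.17 and just missed the threshold (adjusted p = 0.0519). Without any other 1 library it was 1.92 to 2.33 and passed. The antisense gene D030025P21Rik overlaps 764 exonic bases of Ltbp2 (9.34%) in GENCODE and had 14, 9 and 5 against 4, 2 and 17 counts. The sources used here do not say whether counting used strand, so reads of this overlap could belong to either gene.

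Ltbp1, which carries the latent complex of all 3 ligands, was at 86.4, 68.7 and 71.1 CPM in the untreated and 114, 82.2 and 118 CPM in the doxycycline libraries. Doxycycline replicate 2 fell inside the untreated range. The log2 fold change was 0.48 (95% interval 0.13 to 0.83, edgeR adjusted p = 0.111) and 0.62 without doxycycline replicate 2, where it passed (adjusted p = 0.00685). Ltbp3, another carrier of the latent complex, was at 214, 233 and 223 CPM against 205, 181 and 211 CPM. It was a little lower in each doxycycline library, with a log2 fold change of -0.17 (95% interval -0.35 to 0.01, edgeR adjusted p = 0.241), or -0.11 without doxycycline replicate 2. Ltbp4, which binds the TGF-beta1 complex weakly and is needed for elastic fibres, was at 111, 122 and 126 CPM against 97.9, 58.4 and 98.5 CPM. The groups were separate, and doxycycline replicate 2 was far under the other libraries. The log2 fold change of -0.49 (95% interval -0.91 to -0.07) did not pass (edgeR adjusted p = 0.152), and without doxycycline replicate 2 it was -0.29 (adjusted p = 0.052). Ltbp3 and Ltbp4 have the highest GC content of the 10 genes, 60.3% and 62.2%, and with the GC and length offsets their values were -0.01 and -0.28.

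**Figure D3:**
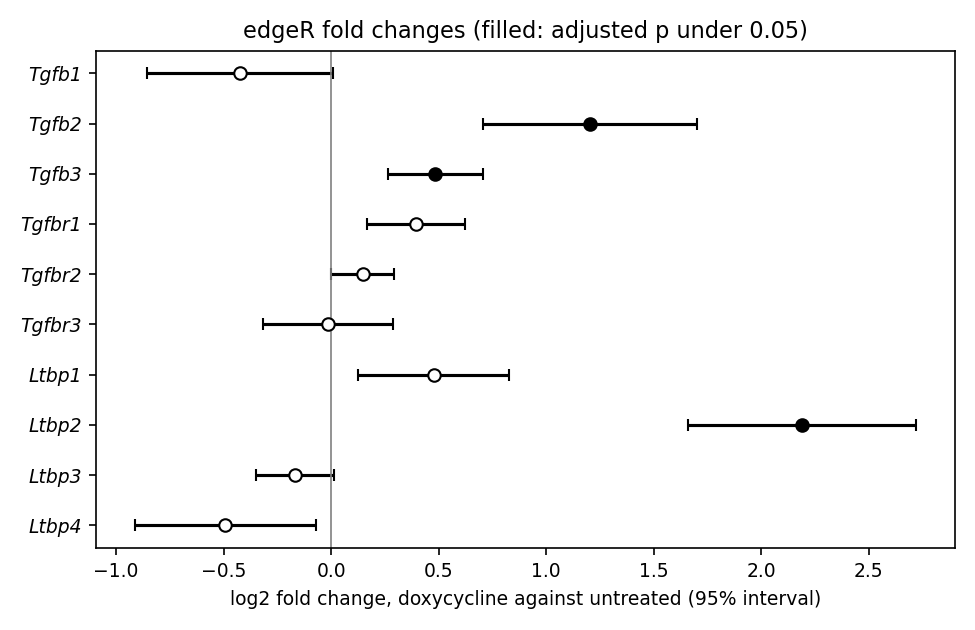
Log2 fold change (horizontal axis) of each gene, doxycycline against untreated, with the 95% interval of the edgeR quasi-likelihood fit as bars; filled points have an adjusted p under 0.05. The intervals of Tgfb2, Tgfb3 and Ltbp2 lie above 0 with a call, and those of Tgfbr1, Ltbp1 and Ltbp4 exclude 0 without one.

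In the order of levels per exonic length, Ltbp2 was the least abundant of the 10 genes in both groups. The untreated libraries ran from Ltbp3 at 24.6 and Tgfbr1 at 24.4 CPM per kb, through Tgfbr2, Tgfb3, Tgfbr3, Ltbp4, Tgfb1 and Ltbp1, to Tgfb2 at 2.69 and Ltbp2 at 0.939. Ranges of Ltbp3 and Tgfbr1 overlapped, as did those of each neighbouring pair from Tgfbr2 to Ltbp4, while Tgfb1, Ltbp1, Tgfb2 and Ltbp2 were each separate from the gene above. After doxycycline Tgfbr1 at 32.0 and Tgfb3 at 29.0 CPM per kb came first, then Tgfbr2 and Ltbp3 at 21.9, with Tgfb2 at 6.21 and Ltbp2 at 4.28 last. Neighbours from Ltbp4 to Ltbp2 overlapped in their ranges there. The order in both groups and the shares also rest on exonic lengths that pool all annotated transcripts of a gene. The spread between libraries is therefore not the only uncertainty in rank. The share of Ltbp2 in the summed LTBP level was 1.84%, 1.83% and 1.84% in untreated and 7.20%, 8.41% and 10.4% in doxycycline libraries. The log2 ratio of Ltbp2 to the sum of the other LTBPs differed by 2.32 between the groups (exact permutation test, p = 0.1, the smallest possible). The summed LTBP level was 51.1 ± 1.23 and 49.2 ± 8.03 CPM per kb, with overlapping ranges.

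Downstream of the receptors, the SMAD genes and their corepressors showed no call. Of 9 tested, edgeR called 0 (1 at an unadjusted p under 0.05), limma-voom 0 and DESeq2 1, Tgif1, and the median log2 fold change was -0.03. The corepressor gene Tgif1 was at -0.28 (edgeR adjusted p = 0.0855), the inhibitory Smad7, itself a TGF-beta target, at -0.34 (adjusted p = 0.226), the inhibitory Smad6 at 0.53 (adjusted p = 0.309) and Tgif2 at -0.12 (adjusted p = 0.5). Tgif1 passed without doxycycline replicate 2. Smad7 ranged from 39.7 to 41.6 CPM in the untreated and from 28.0 to 39.3 CPM in the doxycycline libraries.

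Activators and carriers of latent TGF-beta likewise held no call in edgeR, DESeq2 or limma-voom (0 of 14; 3 at an unadjusted p under 0.05, all higher; median 0.07). Itgav, the integrin chain shared by activating integrins, stood at 0.19 (edgeR adjusted p = 0.198). Its activating partners Itgb6 and Itgb8 were at 0.82 (adjusted p = 0.212) and 1.18 (adjusted p = 0.143), at levels under 4 CPM. Lrrc32, which holds latent TGF-beta on cell surfaces, was at 1.12 (adjusted p = 0.172), and it passed, with Itgb3, only without doxycycline replicate 2.

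Of 14 co-receptors and receptor regulators 1 was higher, against 2.84% of all genes tested, and the list's median was 0.03. This was Ldlrad4, an inhibitor of SMAD activation (log2 fold change 0.55, edgeR adjusted p = 0.0446). It lost the call in limma-voom, with the GC and length offsets and without any 1 library other than doxycycline replicate 2. The adaptor Dab2 was at 0.51 (edgeR adjusted p = 0.121) and was called higher by DESeq2 and by edgeR without doxycycline replicate 2. Other values were 0.50 for the pseudoreceptor Bambi (adjusted p = 0.157) and -0.27 for the endothelial co-receptor Eng (adjusted p = 0.288).

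Of 8 activin branch genes tested, whose receptors signal through the same SMADs, edgeR called 2 as higher (median 0.04) and 0 as lower. Over all genes tested the shares were 2.84% and 2.18%. In this list 1 gene was lower at an unadjusted p under 0.05, with 0 lower calls by DESeq2 and limma-voom. Fst encodes follistatin, which traps activin. It went from 0.832, 1.01 and 0.877 to 5.87, 2.82 and 4.96 CPM (log2 fold change 2.31, edgeR adjusted p = 0.021). The activin receptor gene Acvr2a rose by 0.47 (adjusted p = 0.0247), while Acvr1b and Acvr2b were at -0.48 and -0.48 (adjusted p = 0.167 and 0.24). Neither call held without any 1 untreated library or without doxycycline replicate 3, and Fst alone passed without doxycycline replicate 1 or with the GC and length offsets. The list's median depended on which genes were tested and on the libraries: it was 0.44 to 0.50 in the settings that also tested Acvr1c (DESeq2, no filter, and without any 1 untreated library or doxycycline replicate 2) and -0.15 without doxycycline replicate 3.

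Genes of the microfibrils and elastic fibres to which LTBPs attach held 4 calls among 14 tested, all higher, against 2.84% of all genes tested. The list's median was 0.20 (0.03 without doxycycline replicate 2 and 0.36 without doxycycline replicate 3). Lox, which crosslinks collagen and elastin, went from 8.32, 3.84 and 6.68 to 60.2, 33.0 and 88.5 CPM (log2 fold change 3.28, edgeR adjusted p = 0.00834). The microfibril-associated Mfap5 (4.09, adjusted p = 0.0208), Mfap4 (1.32, adjusted p = 0.0156) and the fibulin gene Efemp1 (4.34, adjusted p = 0.0235) rose too. Efemp1 had 4, 4 and 3 counts in the untreated and 93, 16 and 110 in the doxycycline libraries. Efemp1 and Mfap5 (28, 5 and 12 against 231, 110 and 436 counts) passed the filter on low counts only through the doxycycline group, so their part in the count of calls is no support. Both were also called with no filter, and limma-voom called the list's other calls and Mfap5 but not Efemp1. Like Ltbp2 and Tgfb2, Lox, Mfap5 and Efemp1 were lowest in doxycycline replicate 2 of their group, whereas Mfap4 was highest there. No member of the list passed in edgeR without any 1 untreated library (5 to 6 at an unadjusted p under 0.05), and 2 passed without doxycycline replicate 1 or 3. The fibroblast marker sum of 912 CPM was likewise the lowest of its group in doxycycline replicate 2. So were the macrophage (547 CPM), endothelial (501 CPM), mural (557 CPM), neutrophil (42.0 CPM), liver lineage (209 CPM) and lymphocyte (9.48 CPM) sums. The muscle (3061 CPM) and platelet (69.9 CPM) sums were highest there, as were Pdgfra and Fap within the fibroblast list. The part of any of these cells in these values was not tested.

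Known target genes of TGF-beta held calls in both directions. Of 28 tested 2 were higher and 2 lower, with a median of -0.06, against 2.84% higher and 2.18% lower over all genes tested. Postn, a matrix protein gene that also stands on the fibroblast list, rose by 2.88 (edgeR adjusted p = 0.00655), and the oxidase gene Nox4 by 1.30 (adjusted p = 0.0325). The cytokine gene Il11 (-2.46, adjusted p = 0.00174) and the AP-1 subunit gene Junb (-0.51, adjusted p = 0.0233) were lower. Il11 was at 30.6, 34.8 and 34.2 CPM in the untreated and 6.21, 5.08 and 6.77 CPM in the doxycycline libraries, and it alone of the list passed without each of the untreated libraries. Without doxycycline replicate 2, 8 targets were higher and 5 lower, and DESeq2 on all libraries called 6 and 4. Without doxycycline replicate 1 Junb lost its call, and without replicate 3 both Junb and Nox4 did, as with the GC and length offsets, where Col1a1 passed.

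**Figure D4:**
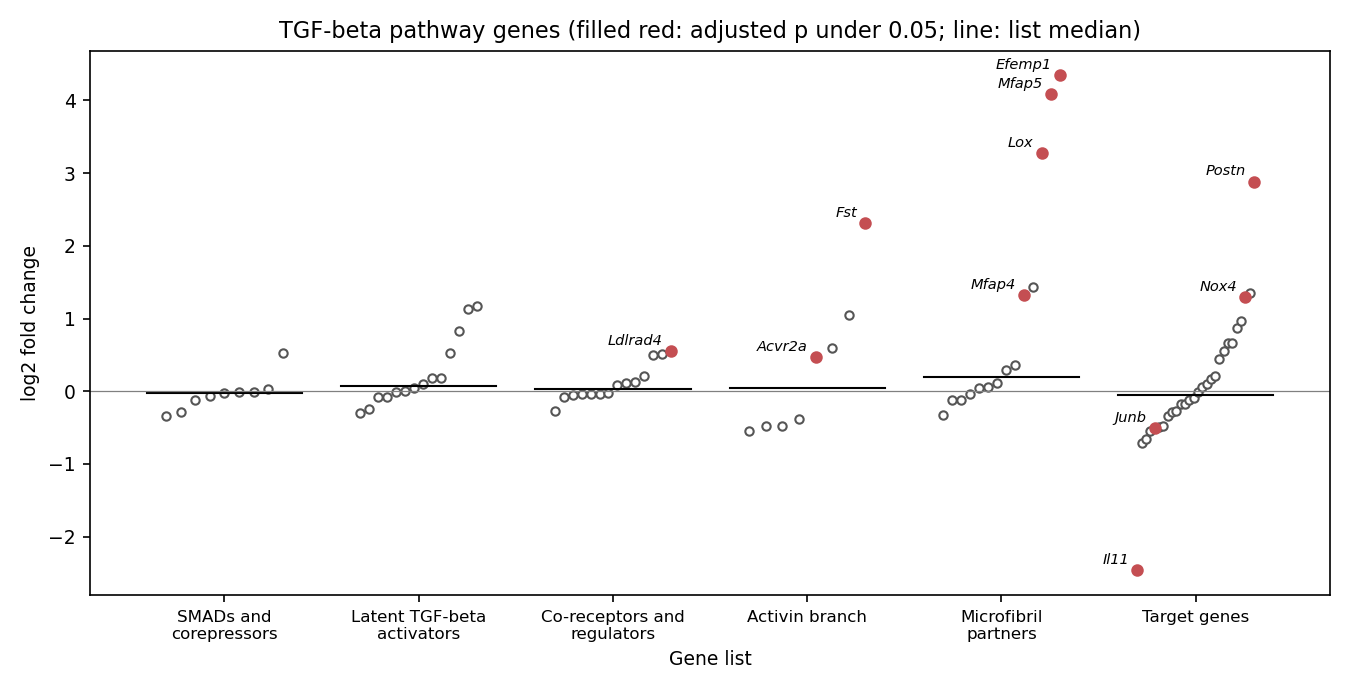
Log2 fold change (vertical axis) of each tested gene of 6 TGF-beta pathway lists, doxycycline against untreated; filled red points have an edgeR adjusted p under 0.05, and lines are list medians. The calls are 4 microfibril genes (1.32 to 4.34), Fst and Acvr2a, Ldlrad4, and the targets Postn and Nox4 above 0 with Junb and Il11 under it.

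The genes whose pattern over the 6 libraries was most like that of each called gene were found among 13344 genes with a mean of at least 1 CPM over these libraries, by the root-mean-square difference of mean-centred log2 CPM. Tgfb3 was closest to Calcoco1, at 0.04 log2 units (log2 fold change 0.45, edgeR adjusted p = 0.0393), then Ptprj (0.05) and Helb (0.06). Tgfb2 was closest to Dnah7b (0.10), a dynein gene with near-identical copies, whose counts are uncertain, then Prkag3 and Cyp4v3 (both 0.12). Ltbp2 was closest to Ptprd (0.18; log2 fold change 2.26, adjusted p = 0.023), Dpp4 (0.22) and Art4 (0.24). Ptprd was at 0.378, 0.566 and 0.472 CPM in the untreated and 2.35, 1.86 and 2.70 CPM in the doxycycline libraries. Replicate 3 was highest and replicate 2 lowest, as for Ltbp2. Ptprd and Prkag3 passed the filter on low counts only through the doxycycline group. Prkag3 (edgeR adjusted p = 0.123) and Helb (edgeR adjusted p = 0.054) were not called. All the similar genes named here were picked for likeness over the same libraries. Their fold changes, calls and order of libraries therefore follow from the choice and are no support.

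**Figure D5:**
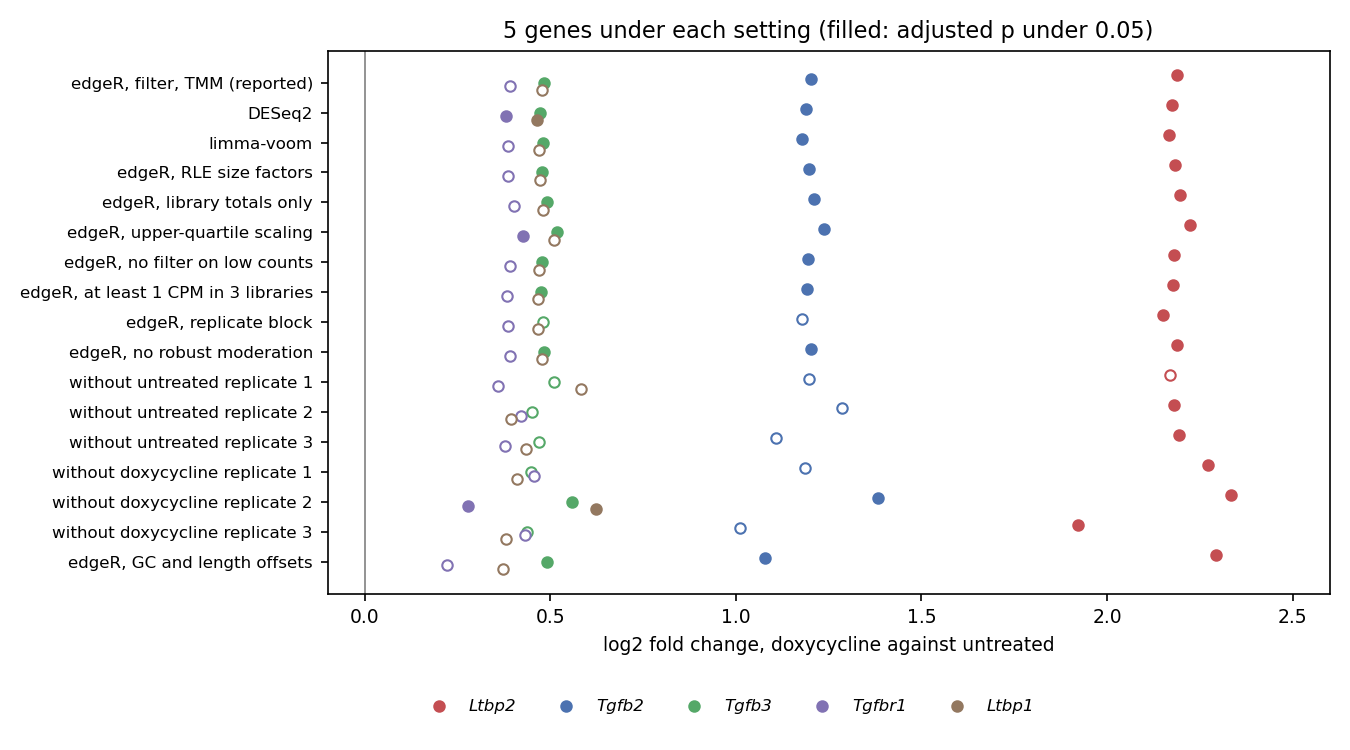
Log2 fold change (horizontal axis) of Ltbp2, Tgfb2, Tgfb3, Tgfbr1 and Ltbp1 under the reported fit and each other setting (rows); filled points have an adjusted p under 0.05. Values stay between 1.92 and 2.33 for Ltbp2, 1.01 and 1.38 for Tgfb2, and 0.44 and 0.56 for Tgfb3, while calls of Tgfb2 and Tgfb3 are lost without each library except doxycycline replicate 2 and with the replicate block.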

How the data were processed

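The deposited table holds raw read counts per gene for 6 libraries. The submitters' processing notes name HTSeq, TopHat and TopHat2 2.0.8 and the mm9 mouse genome, without roles or order. The sources used here do not say how strand, duplicates and multiply mapped reads were handled. The 90 rows without a gene name (0.0361% to 0.0402% of counts) were left out. Groups came from the sample titles. Counts were tested in R 4.3.3 with edgeR 4.0.16 (filterByExpr, TMM, robust glmQLFit and glmQLFTest, two-sided, Benjamini-Hochberg over 14809 genes, threshold 0.05). DESeq2 1.42.0, limma 3.58.1 (voom), other scalings and filters, a replicate block and leaving out each library were alternatives. Fits were tested on simulated data. SE is the log2 fold change over the square root of F; CPM uses TMM-adjusted totals. Exonic lengths, GC content and overlaps came from GENCODE M21 (GRCm38), another build than the authors', joined by symbol (99.3% of tested genes). Of the 30-base stretches in the transcripts of each of the 10 genes, at most 4.14% occur in another gene. Named genes are the 10 genes, per pathway list the called genes, filled up to 4 by smallest p where fewer passed, and the 3 most similar genes of each called one; markers are given as lists with examples. Members and lists were chosen with earlier results of these data known.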

Additional observations from a re-analysis of the deposited data

How the results depend on the processing

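Signs of the log2 fold changes were the same under all 16 alternatives for 9 of the 10 genes; Tgfbr3 was the exception, at 0.019 with upper-quartile scaling and between -0.12 and 0.11 when 1 library was left out. The number of the 10 genes called higher was 5 with DESeq2, 1 with the replicate block and 0 to 5 when 1 library was left out; none was called lower under any alternative. Over all genes, higher and lower calls numbered 877 and 790 with DESeq2, 261 higher (288 lower) with limma-voom, 215 and 179 with the replicate block, and 11 to 1244 higher and 12 to 866 lower without 1 library. The cause was not tested. In the replicate block Ltbp2 passed (log2 fold change 2.15, adjusted p = 0.00937), Tgfb2 (adjusted p = 0.0555) and Tgfb3 (adjusted p = 0.0635) did not, and Ldlrad4 and Acvr2a also lost their calls. Whether the replicate numbers pair the libraries is not known. Deviations of same-numbered libraries correlated at -0.01, -0.07 and 0.02 across genes, and no library correlated best with its own number. These deviations are from means of 3 libraries, so they cannot decide the question. The medians of the SMAD, co-receptor and activin lists changed sign under some settings. The log2 ratios kept their signs, at 1.46 to 1.82 (Tgfb2 to Tgfb1), 0.81 to 1.12 (Tgfb3 to Tgfb1) and 2.17 to 2.46 (Ltbp2 to the other LTBPs) without 1 library. The number of libraries and, for Ltbp2, counts of about 100 in untreated libraries limit the precision.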
